A study of Mus musculus with 8 samples.

Results

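The chromosome 7 V1R genes Vmn1r55 to Vmn1r90 are vomeronasal receptor genes that lie in a row of clusters on mouse chromosome 7. They were taken as the rows of the expression table whose symbol is Vmn1r followed by a whole number from 55 to 90, leaving out Vmn1r85 and Vmn1r89. Of the 34 symbols this gives, 33 were listed in the table, among 27532 genes and 207 V1R genes in all. Vmn1r64 was not analysed here. The vomeronasal organ, the chemosensory organ at the base of the nasal septum, was profiled by bulk RNA sequencing in 8 adult mice, to ask what differs when Tex15 is lost. Heterozygous (Tex15Het, HET) animals were the controls, and 4 of them were compared with 4 knockout (KO) animals; the labels do not say which part of Tex15 was deleted, and no wild-type animal was analysed here. HET1 was male and HET2, HET3 and HET4 were female, while KO1 was female and KO2, KO3 and KO4 were male. Ages were 11.4 weeks for HET1, 14.6 weeks for HET2, 12.1 weeks for KO4 and 11.9 weeks for the other 5 animals. By their animal numbers HET1 and HET2 were placed in an earlier series of mice and the remaining 6 animals in a later one, which thus held all of the knockouts. This grouping was read from the numbers only. The sample titles end in a further number that the labels do not explain, which was separate for HET1, HET2 and KO4 and shared by the other 5. Levels are TPM, read abundance divided by transcript length and scaled to a common sum per library, so they can be compared between genes.

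V1R genes encode receptors of the G protein-coupled kind that detect small molecules, among them pheromones and other social cues. They are used by the apical neurons of the vomeronasal epithelium, which signal through the G protein subunit Gnai2, whereas V2R receptors belong to basal neurons with Gnao1. Each neuron expresses mainly a single V1R gene, so the level of a receptor in whole tissue depends on how many neurons use it. In bulk tissue, fewer neurons with a receptor and less receptor RNA per neuron cannot be told apart. Tex15 encodes a protein known from male germ cells, where it is needed for meiosis and for silencing of transposons.

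Between 17884115 and 26415662 reads per library were recovered from the TPM values, and 3 reads corresponded to 0.0916 to 0.163 TPM for a gene with 2 kb of exons, which covers counting error only. Tex15 itself stood at 2.27 to 2.81 TPM in HET and 0.870 to 1.23 TPM in KO libraries, without overlap, but was not called (log2 fold change −1.22, SE 0.38, limma adjusted p = 0.794). With limma-voom on recovered reads it passed the threshold (−1.60, limma adjusted p = 0.0282). The apical marker Gnai2 stood at 175, 114, 302 and 264 TPM in HET1 to HET4 and at 199, 216, 283 and 292 TPM in KO1 to KO4. HET2 was the lowest and HET3 the highest, and the median ratio of a library to the gene-wise mean over genes was likewise lowest in HET2 (0.663) and highest in HET3 (1.39), so this order was not limited to Gnai2. Of 6 apical markers (Gnai2, Nrp2, Meis2, Pde4a, Ncam2 and Plcb2), all were detected and 0 were called, and their summed level was 144 to 397 TPM in HET and 261 to 377 TPM in KO libraries. Omp, a marker of mature sensory neurons, was at 66.6 TPM in HET1 and at 571 to 943 TPM in the other 7 libraries. Ano1 and Ano2, from the same list of mature neuron markers, did not set HET1 apart. Ano1 was at 24.5 TPM in HET1, above HET2 (18.7 TPM) and KO2 (23.5 TPM). Ano2 was at 18.9 TPM in HET1, between KO1 (17.3 TPM) and KO4 (25.5 TPM). The list summed to 110 to 1007 TPM in HET and 614 to 821 TPM in KO libraries, with 0 called. HET1 is the only HET male and weighs heavily in the fitted genotype differences, and whether it is a like control was not tested. The 4 markers of main olfactory neurons (Cnga2, Gnal, Adcy3 and Stoml3) summed to 41.9 to 197 TPM in HET and 24.1 to 43.5 TPM in KO libraries, with 0 called; their part in the results was not tested. The sums of the lists for immune cells, erythrocytes, cartilage, progenitors, immature neurons, basal neurons and receptor choice regulators also overlapped between groups, with 0 genes called in each.

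The results turn on a stretch of 6 genes, Vmn1r66 to Vmn1r71, and coding sequence shows how close its members are. The lines give 120 coding bases from the same aligned part of 5 of them, printed 5′ to 3′ on the coding strand, with capitals marking bases that differ from Vmn1r69. Coordinates are on chromosome 7 of GRCm38 and lie wholly within a coding exon of the GENCODE annotation.
Vmn1r69 (chr7:10580545-10580664, minus strand): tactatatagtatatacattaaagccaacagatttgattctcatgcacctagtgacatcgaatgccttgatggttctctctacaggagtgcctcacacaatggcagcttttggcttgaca
Vmn1r68 (chr7:10527912-10528031, minus strand): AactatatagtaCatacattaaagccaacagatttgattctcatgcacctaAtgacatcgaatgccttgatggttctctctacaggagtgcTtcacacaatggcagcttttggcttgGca
Vmn1r67 (chr7:10446907-10447026, plus strand): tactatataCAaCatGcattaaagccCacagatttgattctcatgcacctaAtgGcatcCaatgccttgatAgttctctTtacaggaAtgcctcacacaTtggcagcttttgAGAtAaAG
Vmn1r66 (chr7:10274874-10274993, minus strand): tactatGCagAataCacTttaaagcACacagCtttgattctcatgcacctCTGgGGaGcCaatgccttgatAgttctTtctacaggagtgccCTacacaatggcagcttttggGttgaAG
Vmn1r71 (chr7:10748541-10748660, minus strand): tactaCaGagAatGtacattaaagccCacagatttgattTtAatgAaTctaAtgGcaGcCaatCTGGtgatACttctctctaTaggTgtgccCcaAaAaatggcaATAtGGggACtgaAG
Within these 120 bases Vmn1r68 differed from Vmn1r69 at 5, Vmn1r67 at 18, Vmn1r66 at 22 and Vmn1r71 at 33 bases. Over the whole coding sequence Vmn1r68 and Vmn1r69 were 93.0% identical, and the member closest to Vmn1r71 was Vmn1r67, at 73.7%. Vmn1r70 was closest to Vmn1r83, at 56.8%, and is not shown for that reason.

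Sequence closeness decides how well reads can be told apart. Among all pairs of members 26 were at least 90% identical in coding sequence, of which 24 lay among Vmn1r55 to Vmn1r63, the pair Vmn1r68 and Vmn1r69 was another, and the pair Vmn1r86 and Vmn1r88 (93.1%) the last. Vmn1r62 and Vmn1r63 were the closest pair, at 97.1%. Of every 100-base window in a member's annotated transcripts, more than 95% were found in no other gene's transcripts for 26 of the 33 members, and 11 members had no shared window at all. The share of unique windows was 99% for Vmn1r69, 99.6% for Vmn1r68 and 89.6% for Vmn1r71, whose shared windows lie in Gm5130 on the opposite strand. The library kit kept the strand, but whether the counting used it is not given in the sources used here, so reads of Vmn1r71 and Gm5130 may not have been told apart. It was lowest for Vmn1r90 (81.1%, shared with the overlapping Nlrp5-ps), Vmn1r62 (86.0%) and Vmn1r88 (87%, shared with Gm4879), and values of these 3 are the least certain. For Vmn1r86 and Vmn1r88 the first 120 coding bases are shown, with capitals where Vmn1r88 differs, at 2 bases.
Vmn1r86 (chr7:13102828-13102947, minus strand): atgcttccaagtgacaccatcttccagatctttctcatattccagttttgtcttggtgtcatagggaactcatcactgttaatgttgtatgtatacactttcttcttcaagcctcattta
Vmn1r88 (chr7:13177719-13177838, plus strand): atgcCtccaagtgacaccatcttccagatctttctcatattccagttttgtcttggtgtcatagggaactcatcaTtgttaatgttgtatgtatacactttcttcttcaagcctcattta
The levels of these near neighbours in sequence were far apart, with Vmn1r86 at a mean of 12.4 TPM over the 8 libraries and Vmn1r88 at 0.231 TPM.

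The mean level of the 33 members ranged from 0.231 to 26.3 TPM, with a median of 1.85 TPM. By the mean over all 8 libraries the 6 highest were Vmn1r71, Vmn1r86, Vmn1r58, Vmn1r56, Vmn1r60 and Vmn1r55, but the order differed between the groups. In HET libraries Vmn1r86 was the highest, with a mean of 16.4 TPM against 12.5 TPM for Vmn1r71, and it was above Vmn1r71 in each of the 4. Vmn1r58 (6.75 TPM), Vmn1r69 (5.37 TPM), Vmn1r61 (5.24 TPM) and Vmn1r55 (4.65 TPM) came next. In KO libraries Vmn1r71 was the highest at 40.1 TPM, followed by Vmn1r58 at 8.78 TPM, Vmn1r86 at 8.41 TPM, Vmn1r56 at 5.82 TPM and Vmn1r60 at 4.53 TPM. Neighbours in each order differed by less than the larger of their SDs between libraries, except that in KO libraries Vmn1r71 stood further above Vmn1r58, and Vmn1r86 further above Vmn1r56. Only genes whose mean over the libraries reached 0.5 TPM were tested, which kept 29 members and left out Vmn1r59, Vmn1r74, Vmn1r76 and Vmn1r88. Just inside that limit was Vmn1r72, at 0.225 to 0.570 TPM in HET and 0.397 to 1.46 TPM in KO libraries, and just outside it was Vmn1r76, at 0.118 to 0.357 TPM and 0.125 to 0.660 TPM. No member was at 0 in any library.

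**Figure D1:**
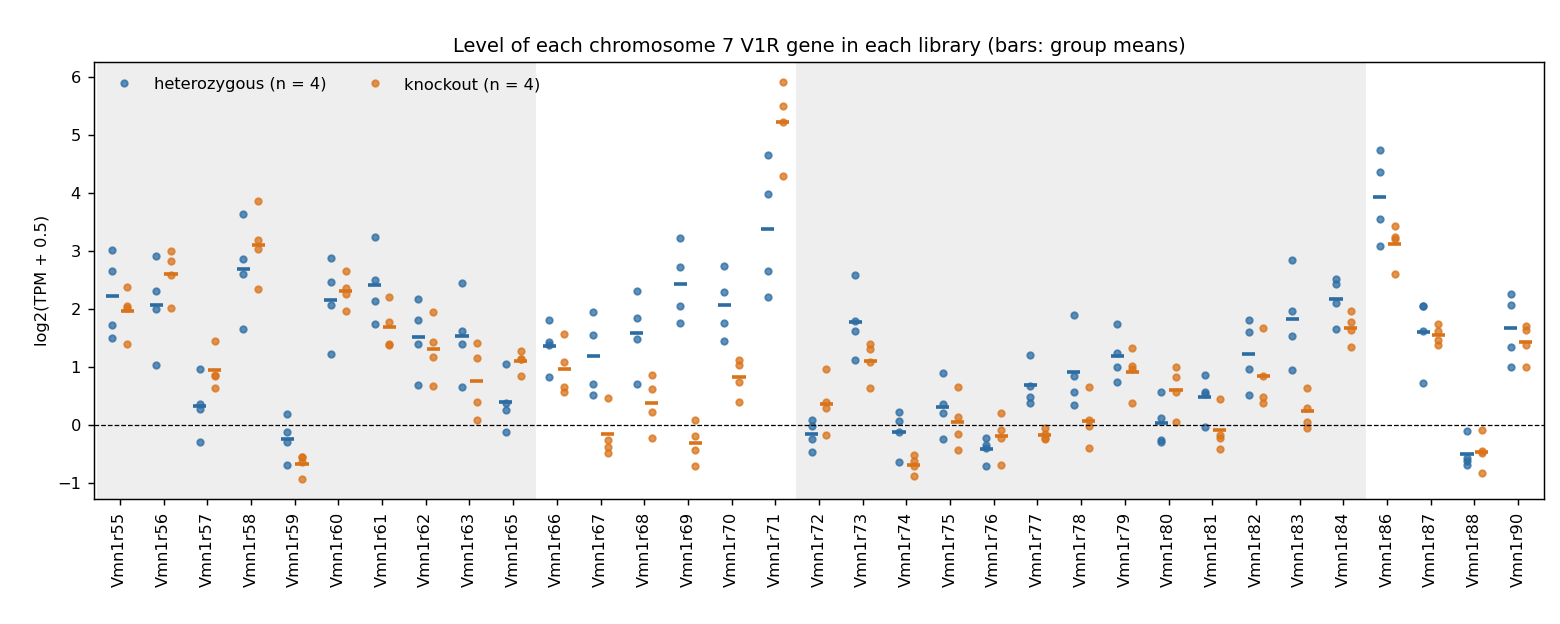
Level of each of the 33 genes, in chromosome order, as log2(TPM + 0.5) on the vertical axis; each point is 1 library, blue for heterozygous and orange for knockout (n = 4 each), short bars are group means, the dashed line is 0.5 TPM and shading separates the stretches Vmn1r55 to Vmn1r65, Vmn1r66 to Vmn1r71, Vmn1r72 to Vmn1r84 and Vmn1r86 to Vmn1r90. The knockout points of Vmn1r69 all lie below its heterozygous points, and Vmn1r71 has the highest points of all.

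Knockout was compared with heterozygous tissue with limma, with sex as a second term, over all 20305 genes with enough signal. Each fold change is given as log2 of TPM + 0.5, which understates low genes, and relative to the median tested gene, which itself stood 0.19 higher in KO libraries. The limma p-values and calls are for the fitted value before this subtraction, for example −2.48 for Vmn1r69 and 1.78 for Vmn1r71. The amount subtracted differs between fits and was 0.46 in the fit without KO1. Of the 29 members tested, 1 fell and 0 rose at a limma adjusted p under 0.05, where 0.374% of all tested genes fell and 0.212% rose. At an unadjusted p under 0.05 there were 6 members, against 3.1% of all tested genes. The median member stood at −0.73, with 22 of 29 members below the median gene and 7 above it, and single members ranged from −2.68 to 1.59. In 5 members, Vmn1r67, Vmn1r69, Vmn1r70, Vmn1r77 and Vmn1r83, every KO library lay below every HET library, where 0.926% of all tested genes did so. In 0 members did every KO library lie above every HET library, where 0.473% of all tested genes did so. Without HET2 the count was 10, all lower (1.42% of all tested genes), and without KO4 it was 8, all lower (1.44%). Without HET3 it was 8, with 5 lower (1.07%) and 3 higher (4.41%), and without KO1 it was 8, with 5 lower (1.15%) and 3 higher (1.16%). Among the 6 animals of the later series, with 2 HET libraries left, it was 16, all lower in KO libraries, where 10% of all tested genes did so. Limma on those 6 animals without the sex term called 5 members, all lower in KO libraries, where 0.743% of tested genes were called lower. These 5 were Vmn1r67, Vmn1r69, Vmn1r70, Vmn1r83 and Vmn1r86.

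The member that fell was Vmn1r69, a V1R gene of the older subfamily e (10578930 to 10613659, minus strand). It stood at 3.65, 2.88, 8.85 and 6.12 TPM in HET1 to HET4, and at 0.563, 0.120, 0.378 and 0.242 TPM in KO1 to KO4. The lowest HET library was thus well above the highest KO library, and KO2, with 5 reads, was the lowest of all. Recovered reads numbered 144 to 283 per HET library and 5 to 19 per KO library. The group means were 5.37 ± 2.7 TPM in HET and 0.326 ± 0.190 TPM in KO libraries (SD, n = 4), a 16.5-fold difference, and the log2 fold change was −2.68 (SE 0.43, limma adjusted p = 0.00434). The difference was −2.48 between the females and −2.49 between the males as mean log2(TPM + 0.5), with 1 library of one genotype in each sex. Because of the sex imbalance HET1 and KO1 carry a weight of 0.5 each in the genotype coefficient. The call was lost without HET1 (log2 fold change −2.41, limma adjusted p = 0.0953) and without KO1 (−2.95, limma adjusted p = 0.0829), and it was kept under 19 of 21 alternatives.

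Its neighbours Vmn1r66, Vmn1r67, Vmn1r68 and Vmn1r70 also had negative fold changes, none of them past the threshold. Vmn1r68, which shares 93.0% of its coding bases with Vmn1r69, stood at 2.32, 1.15, 4.45 and 3.09 TPM in HET1 to HET4 and at 0.358, 0.678, 1.05 and 1.33 TPM in KO1 to KO4. The groups overlapped only in that KO4 lay above HET2, and the log2 fold change was −1.57 (SE 0.46, limma adjusted p = 0.476). Vmn1r70, the member of this stretch least like the others in sequence, stood at 2.90, 2.25, 6.24 and 4.44 TPM in HET1 to HET4 and at 0.817, 1.19, 1.56 and 1.68 TPM in KO1 to KO4. Its groups did not overlap, and its log2 fold change was −1.48 (SE 0.44, limma adjusted p = 0.532). Vmn1r67 stood at 0.945, 1.14, 3.36 and 2.44 TPM in HET1 to HET4 and at 0.887, 0.222, 0.273 and 0.340 TPM in KO1 to KO4. KO1 lay just under HET1, the other KO libraries were far lower, and the log2 fold change was −1.11 (SE 0.41, limma adjusted p = 1). Vmn1r66 had the smallest difference of these genes, with 2.15 ± 0.707 TPM in HET and 1.55 ± 0.688 TPM in KO libraries (SD, n = 4). Summed, Vmn1r66 to Vmn1r70 made up 2.33% to 2.80% of V1R TPM in HET libraries and 0.602% to 0.942% in KO libraries.

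Vmn1r71, which lies next to Vmn1r70 at 10744543 to 10754364, differed in the other direction. It stood at 5.82, 4.13, 24.7 and 15.2 TPM in HET1 to HET4 and at 19.1, 36.7, 44.9 and 59.6 TPM in KO1 to KO4. KO1 lay below HET3, so the groups overlapped, and the other KO libraries were above all HET libraries. The means were 12.5 ± 9.52 TPM in HET and 40.1 ± 16.9 TPM in KO libraries (SD, n = 4), and recovered reads were 447 to 1713 and 1392 to 4791. The log2 fold change was 1.59 (SE 0.54) and did not pass the threshold (limma adjusted p = 0.306). It passed without HET3 (limma adjusted p = 0.0222), without HET4 (0.00483) and without KO1 (0.0312), and over the alternatives the limma adjusted p ran from 0.00483 to 1. The size rested in part on HET1 and KO1. Without HET1 the log2 fold change was 0.75, without KO1 it was 2.42, and in the later animal series it was 1.10 without the sex term and 0.30 with it. The difference was 0.67 between the females and 2.88 between the males as mean log2(TPM + 0.5), with HET1, from the earlier series, as the only HET male. As a share of V1R TPM, which also moves with every other V1R gene, the groups did not overlap. Vmn1r71 held 1.14%, 1.33%, 2.64% and 2.21% in HET1 to HET4 and 4.97%, 5.75%, 6.28% and 7.64% in KO1 to KO4. Ranked by TPM among the 207 V1R genes it was number 8 to 19 in HET and number 3 or 4 in KO libraries.

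Vmn1r72 to Vmn1r84, 13 genes of which 11 have an older name with the subfamily letter g and which lie at 11664479 to 12369273, were mostly low in level. Their mean levels ran from 0.290 TPM (Vmn1r74) to 3.45 TPM (Vmn1r84). Of 11 tested, 0 were called and 9 were below the median gene, with a median of −0.81. The largest difference was in Vmn1r83, which stood at 2.42, 1.43, 6.69 and 3.43 TPM in HET1 to HET4 and at 0.547, 0.471, 0.731 and 1.06 TPM in KO1 to KO4. The groups did not overlap, KO4 was the highest KO library and HET2 the lowest HET library, and the log2 fold change was −1.74 (SE 0.47, limma adjusted p = 0.309). Vmn1r83 rested on 58 to 174 reads per HET and 15 to 32 reads per KO library, and it was called without HET2 (limma adjusted p = 0.0277), in the later animal series (0.00768 without the sex term) and after scaling to Gnai2 or by median ratio. Vmn1r77 stood at 1.10, 0.803, 1.83 and 0.896 TPM in HET1 to HET4 and at 0.471, 0.351, 0.407 and 0.360 TPM in KO1 to KO4. Its KO libraries lay close together, and the log2 fold change was −1.0 (SE 0.39, limma adjusted p = 1). Vmn1r73, Vmn1r75, Vmn1r78, Vmn1r79, Vmn1r81, Vmn1r82 and Vmn1r84 had log2 fold changes of −1.08 to −0.58, with overlapping groups. Vmn1r72 at 0.11 and Vmn1r80 at 0.29 were the 2 on the other side of the median gene, and neither was near the threshold. Of the 2 genes not tested in this stretch, Vmn1r74 had 0.450 ± 0.228 TPM in HET and 0.129 ± 0.064 TPM in KO libraries (SD, n = 4).

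Vmn1r55 to Vmn1r65 lie apart from the rest, at 5129291 to 6011010, and Vmn1r55 to Vmn1r63 are the members most alike in sequence. Of 9 tested, 0 were called, 5 were below and 4 above the median gene, and their median was −0.13. Vmn1r58, the highest of them, stood at 5.61, 2.68, 12 and 6.76 TPM in HET1 to HET4 and at 4.61, 7.73, 8.66 and 14.1 TPM in KO1 to KO4. The groups overlapped over almost their whole range, and the log2 fold change was 0.00023 (SE 0.48, limma adjusted p = 1). Vmn1r56 stood at 3.5, 1.56, 7.08 and 4.45 TPM in HET1 to HET4 and at 3.55, 6.65, 5.55 and 7.53 TPM in KO1 to KO4, with a log2 fold change of 0.18 (SE 0.46). Vmn1r60 stood at 3.68, 1.83, 6.85 and 5.07 TPM in HET1 to HET4 and at 3.40, 4.28, 4.65 and 5.78 TPM in KO1 to KO4, with a log2 fold change of −0.13 (SE 0.44). In both genes KO libraries lay within or just above the HET range. Vmn1r55 stood at 2.82, 2.35, 7.60 and 5.83 TPM in HET1 to HET4 and at 2.14, 3.54, 3.67 and 4.74 TPM in KO1 to KO4, a log2 fold change of −0.48 (SE 0.46). Vmn1r57 and Vmn1r65 were above the median gene, at 0.33 and 0.48, while Vmn1r61, Vmn1r62 and Vmn1r63 were below it, at −0.92, −0.57 and −1.14. Genes over 90% identical in coding sequence thus stood up to 1.47 apart in log2 fold change, as Vmn1r57 and Vmn1r63 did, and this spread was not tested. Vmn1r59, not tested, had 0.375 ± 0.216 TPM in HET and 0.135 ± 0.0754 TPM in KO libraries (SD, n = 4).

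Vmn1r86 to Vmn1r90 hold Vmn1r86, the highest member in every HET library. Vmn1r86 (13097531 to 13119917) stood at 11.2, 8.03, 26.3 and 20.2 TPM in HET1 to HET4 and at 5.57, 8.99, 8.73 and 10.3 TPM in KO1 to KO4. HET2 lay among the KO libraries and the other HET libraries above all of them, and the log2 fold change was −1.06 (SE 0.44, limma adjusted p = 1). Its rank among V1R genes by TPM was 5 to 7 in HET and 14 to 16 in KO libraries. Vmn1r87 at −0.32 and Vmn1r90 at −0.46 had smaller differences with overlapping groups. Vmn1r88, not tested, had 0.220 ± 0.142 TPM in HET and 0.241 ± 0.154 TPM in KO libraries (SD, n = 4).

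Gnai2 varied 2.66-fold between HET libraries, so the members were also read relative to Gnai2 in the same library. On that scale 15 of 29 members had every KO library below every HET library, where 2.32% of all tested genes did so, and 2 (Vmn1r65 and Vmn1r71) had every KO library above, where 0.645% did so. With the limma fit scaled to Gnai2, 4 members fell and 0 rose, where 0.622% of all tested genes fell and 0.123% rose. Those that fell were Vmn1r69 (log2 fold change −2.64, limma adjusted p = 0.000422), Vmn1r70 (−1.47, 0.00676), Vmn1r68 (−1.56, 0.0136) and Vmn1r83 (−1.72, 0.0154), and median-ratio scaling called the same 4, where 0.623% of all tested genes fell. Vmn1r69 went from 2.47% ± 0.361 to 0.139% ± 0.101 of the Gnai2 level, and Vmn1r70 from 1.85% ± 0.210 to 0.522% ± 0.0754 (SD, n = 4). Vmn1r71 stood at 5.23% ± 2.26 in HET and 15.7% ± 4.52 in KO libraries (SD, n = 4), and its limma adjusted p with this scaling was 0.253. Vmn1r86 stood at 7.46% ± 0.974 in HET and 3.39% ± 0.592 in KO libraries (SD, n = 4), with a limma adjusted p of 0.0529. Vmn1r58 kept its overlap, at 3.02% ± 0.722 and 3.45% ± 1.06 (SD, n = 4).

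**Figure D2:**
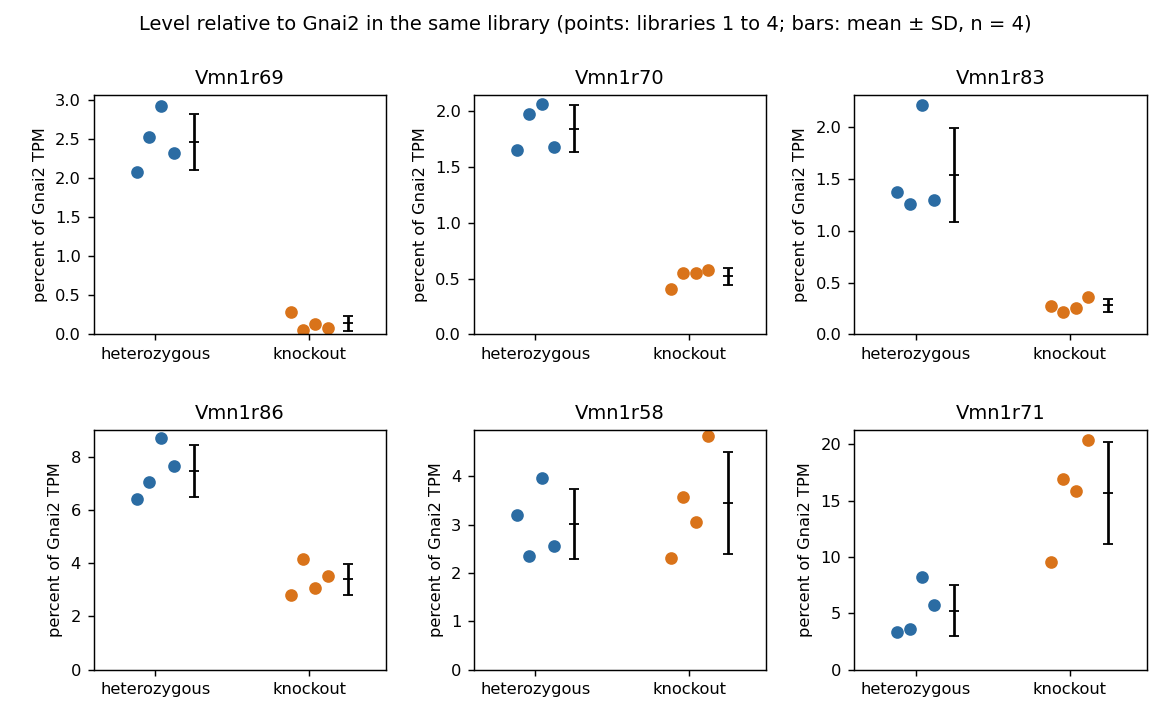
TPM of 6 genes as a percent of the Gnai2 TPM in the same library (vertical axes, each starting at 0), for heterozygous (blue) and knockout (orange) libraries; points are libraries 1 to 4 and black bars are mean ± SD (n = 4). Vmn1r69, Vmn1r70, Vmn1r83 and Vmn1r86 are lower in every knockout library than in any heterozygous library, Vmn1r71 is higher, and Vmn1r58 overlaps.

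Summed over the 33 members the groups were nearly level. The sum was 77.8, 49.0, 174 and 117 TPM in HET1 to HET4 and 59.7, 97.3, 107 and 146 TPM in KO1 to KO4, with means of 104 ± 53.9 and 103 ± 35.6 TPM (SD, n = 4). As a share of all V1R TPM it was 16.6% ± 1.46 in HET and 16.1% ± 1.77 in KO libraries (SD, n = 4), and the values overlapped. Without Vmn1r71 the share was 14.1% to 15.9% in HET and 8.70% to 11.1% in KO libraries, without overlap, while the summed TPM without Vmn1r71 overlapped (44.9 to 149 TPM and 40.7 to 86.8 TPM). Vmn1r71 alone made up 10.8% ± 3.35 of the members' TPM in HET and 38.1% ± 4.47 in KO libraries (SD, n = 4). Vmn1r55 to Vmn1r65 held 5.14% ± 0.516 of V1R TPM in HET and 5.1% ± 0.618 in KO libraries, and their ranges overlapped. Vmn1r72 to Vmn1r84 held 3.42% ± 0.31 and 1.99% ± 0.291, and Vmn1r86 to Vmn1r90 held 3.58% ± 0.366 and 2.16% ± 0.184, both without overlap (SD, n = 4). The summed TPM of these 2 stretches did overlap, at 11.1 to 33.4 TPM in HET and 7.87 to 18.5 TPM in KO libraries for Vmn1r72 to Vmn1r84, and at 10.8 to 34.7 TPM and 9.26 to 16.4 TPM for Vmn1r86 to Vmn1r90.

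Expression was spread over fewer members in KO libraries, and most of that gap went with Vmn1r71. The effective number of members, which is the number of equally used genes that would give the same diversity (the exponential of the Shannon entropy), was 23.5, 22.1, 20.7 and 20.4 in HET1 to HET4 and 14.6, 12.2, 11.1 and 11.7 in KO1 to KO4. The groups did not overlap. Leaving out Vmn1r71, it was 21.5 ± 0.955 in HET and 19.9 ± 0.563 in KO libraries (SD, n = 4). The gap was smaller, with HET libraries at 20.5 to 22.8 and KO libraries at 19.2 to 20.4, still without overlap. At 0.5 TPM or more, 28, 23, 29 and 30 members were detected in HET1 to HET4 and 23, 23, 24 and 27 in KO1 to KO4, with overlap. No test was made on these sums and numbers, because the members were chosen together.

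**Figure D3:**
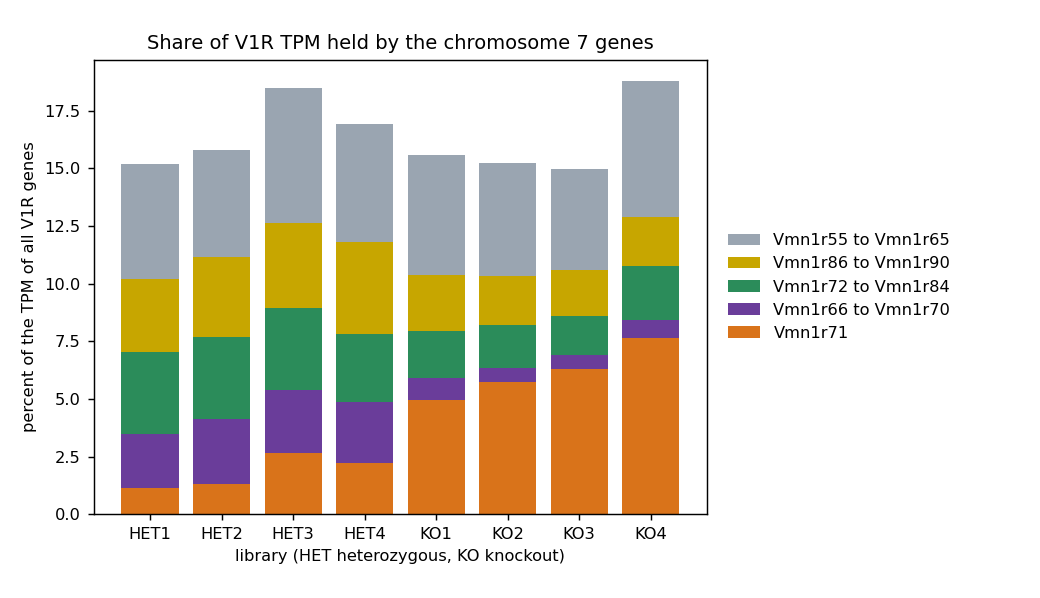
Percent of the TPM of all 207 V1R genes held by the chromosome 7 members (vertical axis) in each library (horizontal axis), stacked by Vmn1r71 and by the other stretches. The full height overlaps between groups, while the Vmn1r71 part runs from 1.14% to 2.64% in heterozygous and from 4.97% to 7.64% in knockout libraries.

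The other V1R genes and the V2R genes that lie between the members were read from the same fit, side by side and with no test of the difference. Of 114 other V1R genes tested, 1 rose and 8 fell (limma adjusted p under 0.05), with a median log2 fold change of −1.03 and 77.2% below the median gene, against 75.9% of the members. In 34 of these 114 (29.8%) every KO library lay below every HET library in TPM, and in 6 above. The members had 5 of 29 (17.2%) and 0, and all tested genes 0.926% and 0.473%. Relative to Gnai2 it was 64 lower and 13 higher, against 15 and 2 of the members. An unadjusted limma p under 0.05 was found in 61 of the 114 and in 6 of the members. Of the 29 V2R genes within the span of the members, from Vmn2r28 to Vmn2r56, all 29 were tested, 22 fell and 0 rose, and their median was −2.75. The V2R genes that lie in the gap between Vmn1r65 and Vmn1r66 ranged in log2 fold change from −3.87 to −1.33. The members at the edges of this gap, Vmn1r65 at 0.48 and Vmn1r66 at −0.73, were not called. Of the 2 V1R genes outside the rule that lie among the members, Vmn1r85 stood at 10.7 ± 5.30 TPM in HET and 6.27 ± 1.60 TPM in KO libraries, and Vmn1r89 at 25.1 ± 11.5 and 31.3 ± 9.31 TPM (SD, n = 4), and neither was called.

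**Figure D4:**
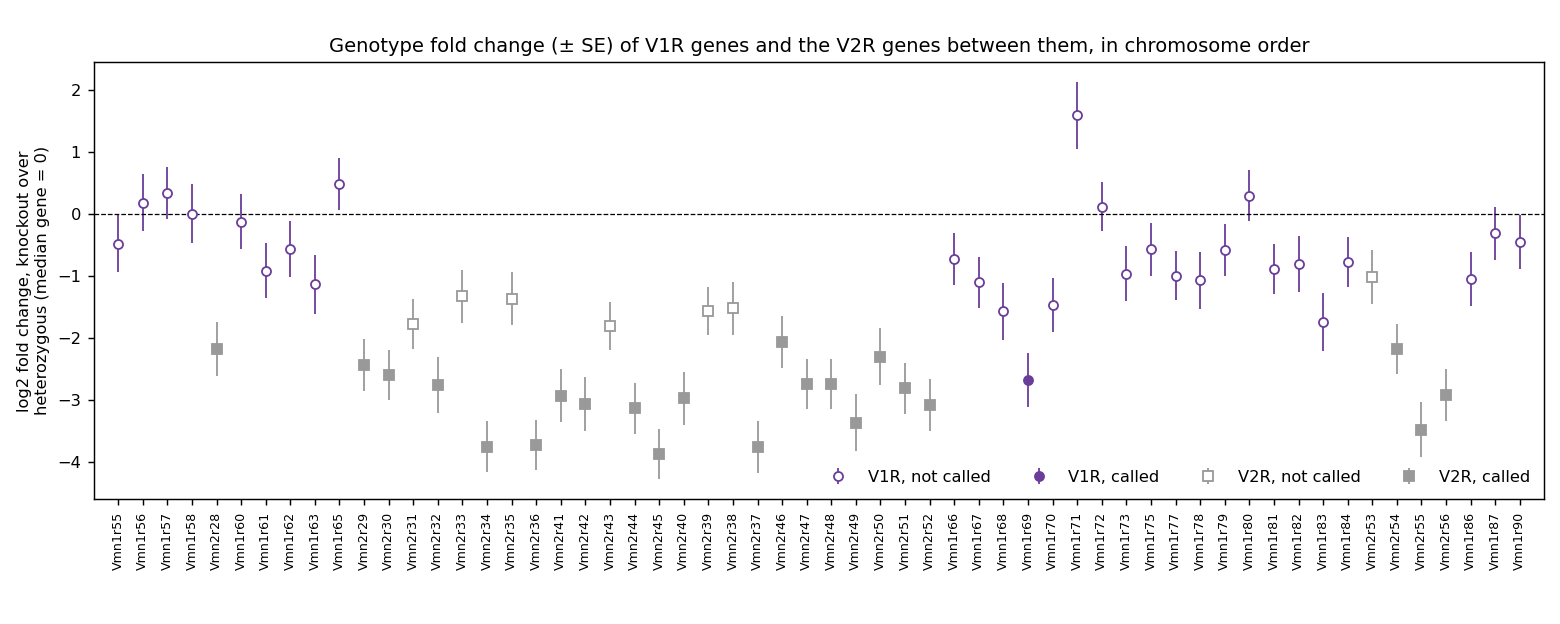
Genotype log2 fold change ± SE (vertical axis, 0 is the median tested gene) of the 29 tested V1R members (circles) and the 29 V2R genes between them (squares), in chromosome order on the horizontal axis; filled symbols passed the limma threshold. The V2R genes all lie below 0 and 22 are filled, while of the V1R members only Vmn1r69 is filled and Vmn1r71 is the highest point.

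Male and female animals were compared in the same fit. Of 29 members 0 were called by sex in limma, and 0 were at an unadjusted p under 0.05, where 0.0492% of all tested genes (10 of 20305) were called and 460 were at an unadjusted p under 0.05. Fitted sex differences ran from −0.85 to 0.49 on the log2 scale over the members, male over female. Limma-voom on recovered reads also called 0 members by sex, where 7 of 20008 tested genes were called.

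The start of 30 members could be matched to a RefSeq promoter window, of 250 bases before to 50 after the start. Only 2 of these windows, those of Vmn1r63 and Vmn1r65, start within 50 bases of the 5′ end of the GENCODE gene, so the others describe sequence inside the longer gene models. The members' windows held a median of 1 CG dinucleotide, with a range of 0 to 3, against a median of 7 over all 32851 windows and of 1 over the windows of 161 other V1R genes. Searched on both strands, CCCNNGGG, the core of the site of Ebf factors, was in 0 of 30 windows, against 13.7% of all windows and 0.621% of those of other V1R genes. TAATTA, a homeodomain core, was in 5 of 30 (16.7%), against 5.29% of all windows and 5.59% of those of other V1R genes. TGACAG, a Meis-type core, was in 4 of 30 (13.3%), against 19.2% and 10.6%. These are matches of letters, and promoter sequence is not shown because most windows lie in transcribed sequence.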

How the data were processed

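Per the labels' protocols, RNA with an integrity number above 7 was poly(A) selected and sequenced as strand-specific paired reads. The submitters' processing notes name Trim Galore 0.6.5, cutadapt 5.1, STAR 2.7.11b, deepTools 3.5.5 and build mm10 (GRCm38). The counting program, its annotation and its treatment of reads matching several genes are not given in the sources used here. The authors deposited TPM values, 1 column per library. Reads were recovered from low values and GENCODE M21 exon lengths: 97.4% to 98.0% of low values (under 30 reads) lay within 0.02 of a whole read. Reads were recovered for 95.7% of genes and 23 members. Genes averaging 0.5 TPM or more were fitted as log2(TPM + 0.5) with limma 3.58.1 (R 4.3.3; lmFit, eBayes with trend, genotype and sex), and p-values were Benjamini-Hochberg adjusted over all genes. The fit was tested on simulated data. Named genes are Tex15, called members, the 6 highest, the members without group overlap with the largest differences, and those next to the filter; the rest are given by stretch. Runs without a gap over 1 Mb were Vmn1r55 to Vmn1r65, Vmn1r66 to Vmn1r88 and Vmn1r90; the finer stretches were chosen after the values were seen. The members and lists were chosen with earlier results of these data known. Proteins were planned for the comparison of sequences, and coding bases were used instead. Alternatives changed the pseudocount, filter, scaling, terms, animals and single libraries; a fit of the later animal series that keeps sex as a term was added after seeing the data.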

Additional observations from a re-analysis of the deposited data

Results flagged for a closer look

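In 5 cases 1 library lay apart from the other 3 of its group, past the 95% critical value of Dixon's test, which chance passes in about 1 in 20 groups. With 120 groups of 4 libraries screened, chance alone gives about 6. HET3 had the highest Vmn1r88 level of its group, 0.430 TPM against 0.122 to 0.174 TPM, and the highest summed member level relative to Gnai2, 57.5% against 43.2% to 44.4%. KO4 had the highest member share of V1R TPM, 18.8% against 15% to 15.6% in the other KO libraries. HET4 had the lowest share of Vmn1r72 to Vmn1r84 in V1R TPM, 2.95% against 3.56% to 3.59%. KO1 had the highest share of Vmn1r66 to Vmn1r70 in the members' TPM, 6.04% against 3.95% to 4.15%, and KO1 was also the highest KO library for Vmn1r69 (0.563 TPM).

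In 2 members the KO libraries lay on opposite sides of the HET libraries in the sexes: Vmn1r55 (0.42 in males, −0.99 in females) and Vmn1r88 (0.23 and −0.35), as differences of mean log2(TPM + 0.5). Each sex holds 1 library of one genotype, and the difference between the sexes was not tested.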

How the results depend on the processing

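The count of members called by genotype was 1 in the fit reported. It was 4 with median-ratio scaling and 4 scaled to Gnai2 (where 0.623% and 0.622% of all tested genes were called lower), 5 with the later animal series and no sex term (0.743%), 6 with the later series and the sex term (where 1.35% of all tested genes were called lower), and 0 to 2 when single libraries were left out (0 without HET1), where 0.406% to 1.25% of all tested genes were called. The counts of 4, 5 and 6 were all lower in KO libraries. With the replicate block in place of sex it was 2 (Vmn1r69 lower, and Vmn1r71 higher at a limma adjusted p of 0.0252, where 0.64% of all tested genes were called). With the replicate block and sex it was 1, Vmn1r69, where 128 of 20305 tested genes were called, 71 of them lower in KO libraries. Same-numbered libraries had correlations of −0.061, 0.027, 0.097 and −0.00012 in their deviations from the group means. Only the libraries numbered 3 matched each other best. With 4 libraries a group these values cannot settle whether the library numbers pair the animals. Under limma-voom on recovered reads, where 20 members could be tested, Vmn1r69 was the member called. In that fit 67 of 20008 tested genes were called, 57 of them lower in KO libraries. Called members by sex stayed at 0.

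The median of the members relative to the median gene was −0.73 and ranged from −0.87 to −0.53 over all alternatives. The count of members without overlap, 5, became 17 with median-ratio scaling (14 lower and 3 higher, against 1.97% and 1.32% of all tested genes), 17 over Gnai2 (15 lower and 2 higher, against 2.32% and 0.645%) and 16 in the later animal series (all lower, against 10%), and was 5 to 10 with single libraries left out. The log2 difference of the summed level, 0.06, ranged from −0.25 to 0.36 with single libraries left out and was −0.54 in the later animal series, all within its spread.

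Vmn1r58 and Vmn1r56, both near 0, changed sign. For Vmn1r58 the values were −0.0080 with a pseudocount of 0.1, −0.0064 with a mean of at least 1 TPM, −0.0079 with median-ratio scaling, −0.0075 over Gnai2, and −0.57 in the later animal series with the sex term, and from −0.30 to 0.29 with single libraries left out. For Vmn1r56 they were −0.27 in that fit and −0.00087 to 0.35 with single libraries left out. The cause was not tested. Vmn1r69 ranged from −3.92 to −2.15 and Vmn1r71 from 0.30 to 2.42. Depth limits the lowest values, which went down to 1 read for Vmn1r59 in KO1 and 5 reads for Vmn1r69 in KO2. With 4 libraries a group, simulated data gave calls for 49 of 50 genes lowered by 4 on the log2 scale. Of genes lowered by 2, 30 of 50 were called. The pseudocount sets a floor on this scale, so members near their median level of 1.85 TPM cannot fall by 4. These counts therefore do not give the power for such members.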
